A study of Mus musculus with 6 samples.

Results

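The insulin-like growth factor (IGF) family was followed in ischemic gastrocnemius muscle of WT and GPR174-KO mice. The 10 genes were the ligands Igf1 and Igf2, the receptors Igf1r and Igf2r, and the binding proteins Igfbp2, Igfbp3, Igfbp4, Igfbp5, Igfbp6 and Igfbp7. They were chosen by gene name, with earlier results of these data known. All 10 were found among the 18089 genes of the deposited table and passed the filter on low counts. Muscle RNA was sequenced in 3 WT and 3 GPR174-KO samples of the C57BL/6 strain, each taken 7 days after hindlimb ischemia (HLI), in which the left femoral artery was ligated and excised. The study used male mice of 8 to 10 weeks, the knockout (Gpr174-/Y) lacked the receptor in every cell type, and WT mice were littermates. All 6 muscles had been through ischemia, so the comparison is between genotypes and not between injured and uninjured muscle. Total estimated counts were 18417077 to 19394469 per library. Nothing in the labels ties a library to a separate animal, so p-values measure the spread between these libraries.

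IGF1 and IGF2 are small secreted peptides that signal through the tyrosine kinase receptor encoded by Igf1r. The receptor encoded by Igf2r does not signal in this way: it takes IGF2 to the lysosome and also sorts lysosomal enzymes that carry mannose 6-phosphate. The IGFBP proteins hold most extracellular IGF, and proteases release it from them. IGFBP7 is a more distant relative with weak affinity for IGFs. In injured muscle, IGF1 comes largely from macrophages, interstitial cells and fibres, and IGF2 from differentiating myoblasts.

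Before the family is described, 3 features of the libraries bear on every value. For Gpr174 itself, counts of 8, 2 and 5 were found in WT and of 1, 0 and 0 in GPR174-KO (replicates 1, 2 and 3), too few to be tested. The value of replicate 2 fell between those of replicates 1 and 3 in 86.0% of 3859 abundant genes for WT, in 76.5% for GPR174-KO, and for 9 of the 10 family genes in each group. With replicate 2 of both groups left out, no gene of the whole table was called by edgeR (0 genes, smallest adjusted p = 0.0542), although 5026 had an unadjusted p under 0.05. That fit kept only replicates 1 and 3 of each group, and no other fit of that size was run. Whether the calls were lost through replicate 2 or through fewer libraries was not tested. Without WT replicate 2 alone 5457 genes were called, and without GPR174-KO replicate 2 alone 5527. Among the 10 family genes 0 were called without replicate 2, 3 had an unadjusted p under 0.05, and all 10 kept their sign.

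RNA of cell type markers also differed between genotypes. Among all 14395 genes tested, 27.0% were higher and 27.6% lower in GPR174-KO at an adjusted p of 0.05. The muscle identity of the samples was plain, with Acta1, the skeletal muscle actin, at a mean of 44330 CPM (counts scaled to library size) in WT and 19980 in GPR174-KO. Of 22 mature fibre markers, 20 were lower and 0 higher in GPR174-KO, and their summed FPKM (level per transcript length and library size) ran from 99810 to 126400 in WT and from 50570 to 57170 in GPR174-KO. Of 12 regenerating fibre markers 9 were higher and 0 lower, with sums of 3377 to 4053 against 4494 to 5512. Of 11 macrophage markers 9 were higher and 0 lower, with sums of 583 to 1137 against 1664 to 1838. The study's flow cytometry of ischemic gastrocnemius at 7 days, by contrast, found similar infiltration by total macrophages in both genotypes. Fibroblast markers split into 4 higher and 4 lower of 10, with sums of 3278 to 5226 against 7901 to 8228. These sums mostly hold the 4 higher genes, Col1a1, Col1a2, Col3a1 and Postn, at mean FPKM of 1498 to 2199 in GPR174-KO. Dcn, the most abundant of the lower genes, was at 332. Of 12 endothelial markers 11 were lower and 1 higher, with sums of 376 to 398 against 268 to 295. This RNA difference is opposite to the study's staining of CD31, the protein of Pecam1. There, vascular density in knockout gastrocnemius was higher than in WT at 7 days. No marker of these lists was at 0 in any library, and the liver markers Alb and Apoa1 had at most 8 counts in any library. In whole muscle, fewer cells of a type and less RNA per cell cannot be told apart, and the part these markers play in the IGF values was not tested.

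Igf2 is transcribed from several start sites and Igf1 is spliced in several ways, so the sequences behind the ligand and clearance receptor RNA are shown first. The promoters are RefSeq sequence on GRCm38 and run from 250 bases before to 50 bases after the start, all from the minus strand. Capitals mark a GC box (GGGCGG on either strand) or the EGR1 core (GCGGGGGCG or GCGTGGGCG on either strand), which is searched because EGR1 is a growth factor regulator that the study followed. The first Igf2 start, chr7:142657447-142657746, gives transcripts carrying a smaller part of the Igf2 estimated counts, the second, chr7:142666767-142667066, gives the most abundant transcript, and the Igf2r promoter lies at chr17:12769657-12769956.
Igf2, downstream start: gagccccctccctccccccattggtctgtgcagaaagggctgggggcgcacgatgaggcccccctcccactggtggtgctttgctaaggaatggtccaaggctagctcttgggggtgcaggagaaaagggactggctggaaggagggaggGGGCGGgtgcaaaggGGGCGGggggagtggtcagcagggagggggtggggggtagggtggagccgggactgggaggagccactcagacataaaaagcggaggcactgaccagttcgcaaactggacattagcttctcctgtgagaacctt
Igf2, upstream start: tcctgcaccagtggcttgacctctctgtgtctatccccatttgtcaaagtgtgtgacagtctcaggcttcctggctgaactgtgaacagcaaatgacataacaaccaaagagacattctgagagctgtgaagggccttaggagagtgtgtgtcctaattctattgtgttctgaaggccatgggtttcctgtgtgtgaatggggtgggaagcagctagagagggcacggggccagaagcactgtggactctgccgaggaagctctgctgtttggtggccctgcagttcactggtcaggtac
Igf2r: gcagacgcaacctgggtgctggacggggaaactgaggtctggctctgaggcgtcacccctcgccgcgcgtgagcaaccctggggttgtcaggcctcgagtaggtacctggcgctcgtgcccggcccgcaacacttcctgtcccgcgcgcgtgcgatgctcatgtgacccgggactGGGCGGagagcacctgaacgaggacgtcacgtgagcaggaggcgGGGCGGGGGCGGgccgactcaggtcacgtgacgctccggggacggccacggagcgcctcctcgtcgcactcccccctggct

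The Igf2r sequence was the only 1 of 14 family promoters with an EGR1 core, at position -29 from its start, where the core overlaps a GC box on each side. Of all 32851 promoters in the RefSeq table, 3.47% held the EGR1 core and 35.7% a GC box. GC boxes were found in 6 of the 14 family promoters, which belonged to 5 genes. The downstream Igf2 start had GC boxes and the upstream start had none. The Igf1 promoter in this set has its start at chr10:87861111. Annotated Igf1 starts at 87858265, 87859068 and 87859258 were not searched. Transcripts from those starts held 96.1% of annotated Igf1 counts in WT and 94.3% in GPR174-KO, so nothing is said of their promoters. A match is a description of the letters and not a site shown to be bound.

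Igf1 transcripts differ by a 52-base exon at chr10:87915298-87915349 (GRCm38, plus strand), which changes the end of the IGF1 precursor, the E peptide, and not the mature hormone. The form with this exon is known in muscle as mechano growth factor. The exon is in capitals, with 20 bases of each neighbouring exon.
Igf1 with the exon: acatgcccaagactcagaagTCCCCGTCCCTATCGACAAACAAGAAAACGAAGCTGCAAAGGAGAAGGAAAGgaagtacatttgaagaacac
Igf1 without the exon: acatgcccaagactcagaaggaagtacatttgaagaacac

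Of the 10 family genes, 5 were higher and 2 were lower in GPR174-KO muscle at an adjusted p of 0.05, and 3 were not called. The higher genes were both ligands, both receptors and Igfbp2, and the lower genes were Igfbp6 and Igfbp7. Among all 14395 genes tested, 27.0% were higher and 27.6% lower by the same call, so calls of small size were common in this comparison. With a log2 fold change beyond 1 in either direction required as well, 0 of the 10 family genes remained, where 8.28% of all genes did. The groups did not overlap for the same 5 higher and 2 lower genes, against 33.1% of all genes with every GPR174-KO library above WT and 32.4% with every one below. The median log2 fold change of the 10 genes was 0.26, and that of all genes was 0.00, with quartiles of -0.33 and 0.29.

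The scale of these changes depends on how libraries were made comparable. Trimmed-mean (TMM) scaling, used for all CPM values here, lowers the knockout values relative to scaling by total counts, and total counts moved the median of all genes up by 0.27 on the log2 scale. By total counts 50.7% of all genes were called higher and 14.0% lower, and the family became 6 higher and 1 lower, with Igfbp4 gained and Igfbp7 lost. Relative to the rest of the genes, the order of the 10 fold changes was kept, as the plot of fold changes by gene shows.

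**Figure D1:**
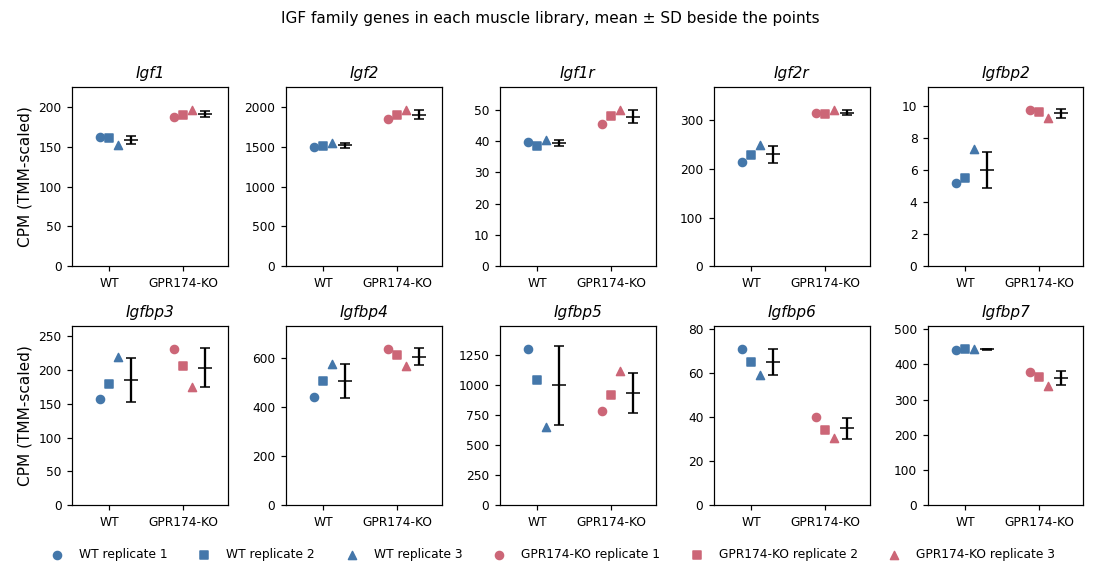
TMM-scaled CPM (vertical axes, linear and starting at 0) of the 10 genes in the 3 WT and 3 GPR174-KO libraries, with replicate 1 as a circle, 2 as a square and 3 as a triangle, and the group mean ± SD beside them. Igf2 sits between 1489 and 1551 in WT and between 1848 and 1956 in GPR174-KO, while Igfbp5 spreads from 648 to 1295 within WT.

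Igf1 (chr10:87858265-87937042, plus strand) was higher in GPR174-KO muscle. It had 162, 161 and 152 CPM in WT replicates 1, 2 and 3, and 188, 190 and 196 CPM in GPR174-KO. Every knockout library was above every WT library. Igf1 was 20.5% higher, a log2 fold change of 0.27 ± 0.05 (SE, n = 3 per group, edgeR adjusted p = 0.00593). Igf1 was therefore a modest difference seen against very little spread within groups, 5.44 CPM (SD) in WT and 4.26 CPM in GPR174-KO.

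The share of Igf1 estimated counts on transcripts with the 52-base exon shown above was 44.7%, 42.7% and 45.1% in WT and 42.5%, 42.2% and 44.5% in GPR174-KO. The groups overlapped, at 44.1% ± 1.25 and 43.0% ± 1.24 (SD, n = 3). Transcripts with the second leader exon, an alternative first exon, made up a small part of Igf1 RNA. Their share was 4.25%, 4.16% and 3.25% in WT and 5.25%, 6.08% and 5.70% in GPR174-KO. All 3 knockout libraries were above WT, but 3 libraries against 3 cannot give an exact two-sided permutation p below 0.10, and no test was made. These shares are over annotated transcripts, which held 77.9% of Igf1 counts in WT and 88.6% in GPR174-KO, and they are model estimates of how shared reads were divided.

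Igf2 (chr7:142650766-142666816, minus strand), an imprinted fetal growth factor that adult muscle expresses again during regeneration, was the most abundant gene of the family. It had 1489, 1508 and 1551 CPM in WT and 1848, 1891 and 1956 CPM in GPR174-KO. The knockout libraries were all higher, by 1.25-fold, a log2 fold change of 0.33 ± 0.08 (SE, n = 3, edgeR adjusted p = 0.0126). The call was lost without WT replicate 2 (edgeR adjusted p = 0.0653) or without GPR174-KO replicate 2 (0.0631). The log2 fold change stayed at 0.33 in both of these fits, while its SE rose to 0.11.

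Igf2 counts were divided over 5 transcripts. The most abundant one, from the upstream start printed above, held 46.4% ± 3.47 of Igf2 counts in WT and 46.0% ± 1.79 in GPR174-KO (SD, n = 3), with overlapping groups. From the downstream start, the longer transcript held 18.4%, 17.1% and 9.68% in WT and 11.9%, 11.9% and 16.3% in GPR174-KO, and the shorter one 11.4% ± 1.39 and 10.2% ± 1.39. A predicted transcript with no start in the annotation used here held 26.2% ± 0.36 in WT and 28.7% ± 0.82 in GPR174-KO, with all knockout libraries higher. The fifth transcript was rare, at 0.88% ± 0.32 and 1.75% ± 0.29, again with all knockout libraries higher.

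The ratio of Igf2 to Igf1 by FPKM, which compares levels per length inside each library and does not depend on scaling, was 19.3, 19.9 and 22.2 in WT and 21.0, 21.0 and 20.5 in GPR174-KO. The groups overlapped. Genes whose centred log2 CPM over the 6 libraries lay nearest to Igf1 among 13635 genes compared were Sec16a, Inppl1 and Trrap. Their root mean square differences were 0.015, 0.016 and 0.020. Nearest to Igf2 were Htt, Cltc and Plxna1, at 0.012, 0.014 and 0.017. All 6 of these neighbours were called higher, with log2 fold changes from 0.24 to 0.35. That follows from how they were picked, since closeness was measured over both genotypes, and it is not a separate result.

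Igf1r (chr7:67952827-68233668, plus strand), the signalling receptor, was the least abundant member per length. It had 39.6, 38.5 and 40.2 CPM in WT and 45.5, 48.0 and 49.8 CPM in GPR174-KO. The knockout libraries lay above WT in all 3 cases, by 1.21-fold, a log2 fold change of 0.28 ± 0.05 (SE, n = 3, edgeR adjusted p = 0.00511). Its estimated transcript shares varied too widely between replicates to be compared, with 1 transcript at 0.0%, 35.0% and 12.4% in WT.

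Igf2r (chr17:12682406-12769664, minus strand), the receptor for IGF2 uptake and lysosomal sorting, rose further. It had 214, 228 and 248 CPM in WT and 314, 311 and 320 CPM in GPR174-KO. The lowest knockout library was above the highest WT library. The fold was 1.37, a log2 fold change of 0.46 ± 0.07 (SE, n = 3, edgeR adjusted p = 0.00249). Within each library the Igf2r level exceeded Igf1r by 6.81, 7.48 and 7.75 times in WT and by 8.86, 8.28 and 8.21 times in GPR174-KO (FPKM), with no overlap. The ratio of Igf2 to Igf2r was lower in all knockout libraries, at 15.9, 16.2 and 15.9 against 18.6, 17.9 and 17.3 in WT, so per length the uptake receptor differed by more than its ligand.

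**Figure D2:**
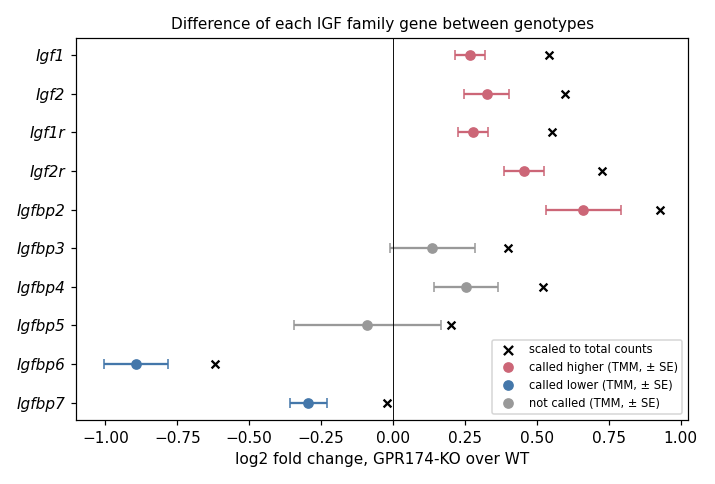
Log2 fold change (GPR174-KO over WT, horizontal axis) of the 10 genes with TMM scaling (circles, ± SE, coloured by call) and with scaling to total counts (crosses). The crosses lie to the right of the circles for all 10 genes, Igfbp7 moves from -0.29 to -0.02, and Igfbp5 crosses 0.

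Igfbp2 (chr1:72824503-72852474, plus strand), a binding protein with some preference for IGF2, was the scarcest binding protein and showed the largest rise of the 10 genes. It had 5.23, 5.54 and 7.31 CPM in WT and 9.75, 9.65 and 9.26 CPM in GPR174-KO. WT replicate 3 was the highest WT library and still lay below the knockout. The fold was 1.58, a log2 fold change of 0.66 ± 0.13 (SE, n = 3, edgeR adjusted p = 0.00593).

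Igfbp6 (chr15:102144362-102149511, plus strand), whose product binds IGF2 far more tightly than IGF1, showed the largest fall. It had 70.9, 64.9 and 59.0 CPM in WT and 40.0, 34.4 and 30.5 CPM in GPR174-KO. The highest knockout library was well below the lowest WT library. Igfbp6 was 1.86-fold lower, a log2 fold change of -0.89 ± 0.11 (SE, n = 3, edgeR adjusted p = 0.00143). With total counts the log2 fold change was -0.62 and the gene was still called. IGF2-preferring binding proteins thus differed in opposite directions.

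Igfbp7 (chr5:77349240-77408041, minus strand), found in vessel walls and endothelium in many tissues, fell by TMM scaling. It had 441, 442.5 and 443 CPM in WT, a narrow spread (SD 0.958 CPM), and 378, 365 and 339 CPM in GPR174-KO. Igfbp7 was 1.23-fold lower, a log2 fold change of -0.29 ± 0.07 (SE, n = 3, edgeR adjusted p = 0.00919). The fall was of the size of the scaling itself: by total counts the log2 fold change was -0.02 (adjusted p = 0.789), and mean FPKM was 375 ± 17.3 and 370 ± 13.5 (SD, n = 3). The endothelial markers Cdh5 and Pecam1 had log2 fold changes of -0.82 and -0.63 in the same libraries, and their part in the Igfbp7 value was not tested.

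Igfbp3 (chr11:7206086-7213923, minus strand), the main carrier of IGF in serum, was not called. It had 157, 179 and 220 CPM in WT and 231, 206 and 174 CPM in GPR174-KO. The groups overlapped, and the log2 fold change was 0.14 ± 0.15 (SE, n = 3, edgeR adjusted p = 0.462). The spread within WT was 31.8 CPM (SD). The value was 0.04 without WT replicate 1 and 0.04 without GPR174-KO replicate 1, 0.29 without WT replicate 3 and 0.24 without GPR174-KO replicate 3, and it was called in none of these fits.

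Igfbp4 (chr11:99041244-99054392, plus strand), generally an inhibitor of IGF action until it is cleaved, had 438, 503 and 576 CPM in WT and 634, 608 and 566 CPM in GPR174-KO. Only GPR174-KO replicate 3 lay within the WT range. The log2 fold change was 0.25 ± 0.11 (SE, n = 3, edgeR adjusted p = 0.0936). Without WT replicate 3 it was 0.36 (adjusted p = 0.00445), and by total counts 0.52 (adjusted p = 0.0123), so the call turns on 1 library and on the scaling.

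Igfbp5 (chr1:72857932-72874884, minus strand), a binding protein made by differentiating myoblasts, varied more within groups than between them. It had 1295, 1040 and 648 CPM in WT and 782, 911 and 1111 CPM in GPR174-KO. WT replicate 1 and GPR174-KO replicate 3 were the high libraries, and WT replicate 3 was the lowest of all 6. The log2 fold change was -0.09 ± 0.26 (SE, n = 3, edgeR adjusted p = 0.788), and by total counts it was 0.20 (adjusted p = 0.484), so no direction can be given.

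Per transcript length, Igf2 stood first in both genotypes. Mean FPKM in WT ran in the order Igf2 (422), Igfbp7 (375), Igfbp4 (226), Igfbp5 (154), Igfbp3 (70.5), Igfbp6 (47.5), Igf2r (23.6), Igf1 (20.6), Igfbp2 (4.71) and Igf1r (3.20). Among neighbours in that order, the ranges of Igf2 and Igfbp7 and those of Igfbp4 and Igfbp5 overlapped, and the others did not. In GPR174-KO the means were 624 for Igf2, 370 for Igfbp7, 323 for Igfbp4, 177 for Igfbp5, 93.1 for Igfbp3, 39.0 for Igf2r, 30.9 for Igfbp6, 29.9 for Igf1, 8.88 for Igfbp2 and 4.63 for Igf1r. Igf2r had moved ahead of Igfbp6, and Igfbp6 overlapped only with Igf1.

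Expressed as shares of the summed binding protein FPKM, the make-up held less Igfbp7 and Igfbp6 and more Igfbp4 and Igfbp2 in GPR174-KO, by values that were not tested. Igfbp7 made up 42.2%, 42.6% and 43.5% in WT and 37.8%, 37.2% and 35.6% in GPR174-KO. Igfbp4 made up 21.9%, 25.3% and 29.6% in WT and 33.2%, 32.4% and 31.1% in GPR174-KO. For these genes the knockout libraries did not overlap with WT. The share of Igfbp6 was 5.42% ± 0.432 in WT and 3.08% ± 0.345 in GPR174-KO, and that of Igfbp2 was 0.534% ± 0.0886 and 0.886% ± 0.0489 (SD, n = 3), also without overlap. Igfbp5 and Igfbp3 overlapped between genotypes. Computed from expected counts without correction for length, the Igfbp4 shares overlapped as well.

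**Figure D3:**
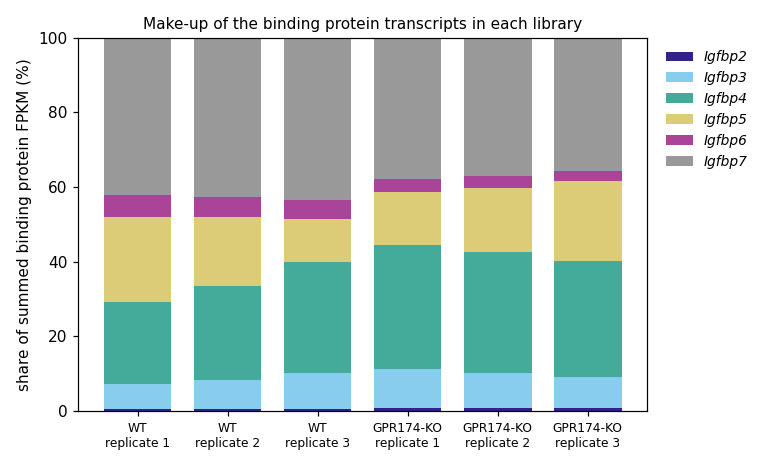
Share of the summed FPKM of the 6 binding protein genes (vertical axis, %) taken by each gene in each of the 6 libraries (bars). Igfbp7 takes 42.2% to 43.5% in WT and 35.6% to 37.8% in GPR174-KO, and Igfbp5 varies from 11.7% to 22.9% among the WT libraries.

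The summed FPKM of binding proteins over that of the ligands was 2.08, 2.01 and 1.88 in WT and 1.58, 1.54 and 1.48 in GPR174-KO. All knockout libraries were lower, so ligand RNA was higher relative to binding protein RNA at matched library. This ratio is one of RNA levels and says nothing of the amount of free IGF protein.

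The genes that act on the family were followed next, by role. Pappa encodes a secreted protease that cleaves IGFBP4 in the presence of IGF. It had 37, 38 and 60 counts in WT and 134, 144 and 186 counts in GPR174-KO. Every knockout library was higher, by 2.74-fold, a log2 fold change of 1.45 ± 0.20 (SE, n = 3, edgeR adjusted p = 0.00172). Of 5 genes for binding protein cleavage and its inhibitors, Pappa was the only one higher and Htra1, a secreted serine protease, the only one lower (-0.43, adjusted p = 0.00593). Among all genes 27.0% were higher and 27.6% lower, so these counts are not a result about the list. The related protease Pappa2 had a log2 fold change of 0.53 (adjusted p = 0.160). The stanniocalcins Stc1 and Stc2, which inhibit both proteases, had values of -0.02 and 0.38 (adjusted p = 0.926 and 0.101), and that of Stc1 turned positive with upper-quartile and total-count scaling. By total counts the list held 2 higher genes and 0 lower, since Htra1 was at -0.16 (adjusted p = 0.0879) and Stc2 was called at 0.65 (adjusted p = 0.0125). With that scaling 50.7% of all genes were higher and 14.0% lower. Pappa2 was called without WT replicate 3 (0.94, adjusted p = 0.0162) and Stc2 without GPR174-KO replicate 3 (0.53, adjusted p = 0.0196).

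Of the 7 other family genes, 2 could be tested. Insr, the insulin receptor, which can pair with the IGF1 receptor, was lower by a log2 fold change of -0.28 (adjusted p = 0.00261) and was not called by total counts (-0.01, adjusted p = 0.898). Igfals, a partner in the serum IGF complex, had a value of -0.42 (adjusted p = 0.557). Ins2, Insrr and Igfbpl1 had at most 8 counts in any library, and Ins1 and Igfbp1 were not found by name among the deposited genes.

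Growth hormone drives Igf1 through its receptor, JAK2 and STAT5. Of 6 genes of this input, Ghr, the growth hormone receptor, and Stat5b were lower, with log2 fold changes of -0.57 (adjusted p = 0.0449) and -0.77 (adjusted p = 0.0061). Socs2, a feedback inhibitor, was higher at 0.31 (adjusted p = 0.0232). These counts stand beside 27.0% of all genes higher and 27.6% lower. Jak2, Stat5a and Cish were not called, at 0.05, -0.22 and -0.47, and Stat5a turned positive by total counts. The calls of Ghr and Socs2 depended on single libraries. Ghr ran from -0.76 without WT replicate 3 to -0.34 without WT replicate 1 and was called in 1 of 6 fits that left out a library, the one without WT replicate 3, and it was -0.28 (adjusted p = 0.191) by total counts. Socs2 lost its call in 4 of these 6 fits, all but those without WT replicate 1 or 3. Without WT replicate 3, Stat5a (-0.33, adjusted p = 0.0119) and Cish (-0.60, adjusted p = 0.0165) were called lower, and by total counts Jak2 was called higher (0.33, adjusted p = 0.00462).

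Downstream of the IGF1 receptor, 7 of 27 signalling genes were higher, 5 were lower and 15 were not called, beside 27.0% higher and 27.6% lower among all genes, and their median log2 fold change was -0.02. Irs1, a docking protein for the receptor, was lower at -0.68 (adjusted p = 0.00113), and Irs2 at -0.24 (adjusted p = 0.0435), although Irs2 was 0.03 by total counts. Akt1, a kinase for growth and survival, was higher at 0.52 (adjusted p = 0.00195), whereas Akt2, the isoform tied to glucose uptake, was at -0.01 (adjusted p = 0.949). With total counts Akt2 was called higher at 0.27 (edgeR adjusted p = 0.00503). The largest rises were Ptpn1, a phosphatase that acts on the receptor (0.68), Grb10, an imprinted adaptor that restrains it (0.59), and Akt1. The largest falls were Grb14, a related adaptor (-0.98), Irs1, and Foxo1, a transcription factor that AKT keeps out of the nucleus (-0.41). Inhibitors and carriers of the signal were found among both the higher and the lower genes. By total counts 18 of the 27 were higher and 2 lower, where 50.7% of all genes were higher and 14.0% lower, and Foxo1 was no longer called (-0.14, adjusted p = 0.119). Irs2 lost its call in 5 of 6 fits that left out a library, all but that without WT replicate 1, and Grb14 lost it without GPR174-KO replicate 3 (adjusted p = 0.0564).

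**Figure D4:**
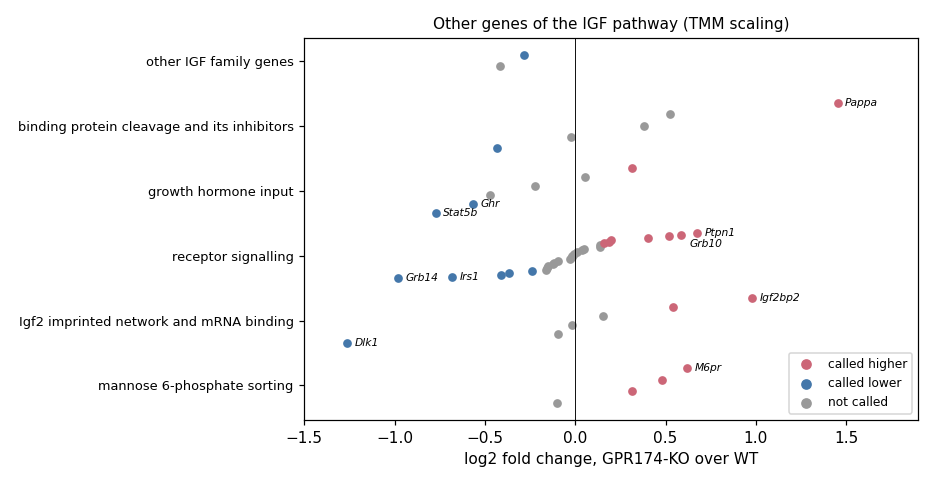
Log2 fold change (GPR174-KO over WT, TMM scaling, horizontal axis) of the tested genes in 6 groups of the IGF pathway (rows), coloured by call, with genes beyond 0.55 in either direction named. Pappa at 1.45 and Dlk1 at -1.26 lie farthest from 0, and the signalling genes spread on both sides.

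Igf2 belongs to a network of imprinted growth genes, and its mRNA is bound by the IGF2BP proteins. Of 6 such genes tested, Igf2bp2, an mRNA-binding protein of proliferating myoblasts, was higher at 0.98 (adjusted p = 0.00188), and so was the imprinted gene Mest at 0.54 (adjusted p = 0.00657). Dlk1, an imprinted inhibitor of differentiation, was lower at -1.26 (adjusted p = 0.00175). Among all genes, 27.0% were higher and 27.6% lower. Plagl1, Cdkn1c and Igf2bp3 were not called, at -0.02, 0.15 and -0.09. By total counts Plagl1 was called higher (0.25, edgeR adjusted p = 0.0188), and Igf2bp3 turned positive without a call. Cdkn1c was called by total counts (0.43, adjusted p = 0.00229) and without WT replicate 3 (0.16, adjusted p = 0.042). With total counts the list held 4 higher genes and 1 lower, where 50.7% of all genes were higher and 14.0% lower. Igf2bp1 had at most 5 counts in any library, and H19, the noncoding neighbour of Igf2, was not found by name among the deposited genes. Among the imprinted genes, Dlk1, paternally expressed like Igf2, thus differed in the opposite direction from Igf2. Mest differed in the same direction as Igf2, and Plagl1 and Cdkn1c were not called by TMM scaling.

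Of 4 genes listed for the sorting route that Igf2r serves, 3 were higher. M6pr, the other mannose 6-phosphate receptor, was higher at 0.62 (adjusted p = 0.00373). Gnptab, which makes the tag, was higher at 0.48 (adjusted p = 0.000778), and Nagpa, which uncovers it, at 0.31 (adjusted p = 0.00916). Gnptg, a further subunit of the tagging enzyme, was at -0.10 (adjusted p = 0.152) and at 0.17 by total counts. The list thus had 3 of 4 genes higher and 0 lower, against 27.0% of all genes higher, and Igf2r itself was at 0.46. By total counts all 4 were called higher, where 50.7% of all genes were. The list is short and was chosen with earlier results of these data known, so it is no support for the Igf2r value.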

How the data were processed

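Libraries were made from muscle total RNA with an Illumina TruSeq kit per the labels, whereas the study's methods name a BGISEQ platform. The authors deposited 1 table of 58843 RefSeq mRNA transcripts. It holds expected counts (estimated reads per transcript, not whole and not normalized), and the authors also gave FPKM and TPM, scaled for transcript length and library size. The submitters' processing notes list HISAT2 2.0.4, Bowtie2 2.2.5, RSEM 1.2.12 and GRCm39, while the coordinates and sequences here are GENCODE M21 and RefSeq on GRCm38, so positions are those of the reference and not of the authors' alignment. Strand use is not given in the sources used here, so reads from antisense RNAs that overlap Igf1, Igf2 and Igf2r cannot be told apart from theirs.

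Expected counts were summed over the transcripts of an Entrez gene (18089 genes, 99.7% with a symbol) and rounded. Groups and replicate numbers were taken from the sample titles and genotype labels. Genes passing edgeR's low-count filter (14395) were compared with edgeR 4.0.16 (TMM scaling, robust quasi-likelihood F-test, all 6 libraries, no covariate) in R 4.3.3 with limma 3.58.1 and DESeq2 1.42.0 for alternatives. P-values were adjusted by Benjamini-Hochberg over all tested genes. A gene was called at an adjusted p of 0.05, and both thresholds add an absolute log2 fold change of 1, as in the study's methods. Standard errors are of the log2 fold change. FPKM was used for levels between genes and for ratios, and TPM was not used. The scripts were tested on simulated data. Libraries of one group differed by more than counting noise (chi-square per degree of freedom of 2.04 to 83.9) and were each counted once, which does not show that they came from separate animals. At these depths 3 counts correspond to 0.14 to 0.187 CPM.

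The 10 members and the gene lists were chosen with earlier results of these data known. Besides the members and Gpr174, named genes were all genes of pathway lists of at most 8 genes, Irs1, Irs2, Akt1, Akt2 and the 3 largest called rises and falls of the signalling list, the 3 nearest genes to Igf1 and Igf2, and the markers with the highest mean FPKM of each list. Alternatives were other scalings (DESeq2 size factors, upper quartile, total counts), other tests, other filters, FPKM fits, the replicate block, and libraries left out.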

Additional observations from a re-analysis of the deposited data

How the results depend on the processing

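Of 180 comparisons of a family gene with an alternative setting, 156 changed neither sign nor call, 13 lost a call, 5 gained one and 6 changed sign. The 6 sign changes were all of Igfbp5, which was not called in any setting: it was 0.20 by total counts, 0.23 by limma on log2(FPKM + 1), with or without the filter, and 0.23 on log2(FPKM + 0.1), and it ran from -0.31 to 0.16 with 1 library left out. Family genes called lower numbered 1 by total counts and by the 3 FPKM fits, which do not apply TMM scaling, and family genes called higher ran from 4 to 6 with 1 library left out. With replicates 1 and 3 of both groups only, 0 family genes were called higher, 0 lower, and 0 genes of the whole table at any fold change or past both thresholds, where 5026 had an unadjusted p under 0.05. That fit had fewer libraries than any other, and the part this plays in the lost calls was not tested. The number of genes past both thresholds was 1192, and 645 and 646 by limma on log2(FPKM + 1) with and without the filter. It ran from 924 to 1826 with 1 library left out, the highest being without WT replicate 3, and the cause was not tested.

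Same-numbered libraries did not deviate together: 0 of 6 correlated best with their own number. With a replicate block 6812 genes were called against 7863, 1139 passed both thresholds, and the family still had 5 higher and 2 lower genes, with adjusted p up to 0.0388 for Igf2, so it changed no call of the family.

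Of 1088 such comparisons of the other named genes, 901 changed neither sign nor call, 117 lost a call, 28 gained one and 42 changed sign. By total counts Stc1 was 0.25, Stat5a 0.057, Irs2 0.033, Akt2 0.27, Plagl1 0.25, Igf2bp3 0.17 and Gnptg 0.17. By limma on log2(FPKM + 1) Stc1 was 0.13, Stat5a 0.057, Irs2 0.034, Akt2 0.27, Plagl1 0.25, Gnptg 0.14 and Mbp -0.001, and the values without the filter were to 3 decimals the same for these genes, with Igf2bp3 at 0.072. By limma on log2(FPKM + 0.1) Stc1 was 0.23, Stat5a 0.063, Irs2 0.041, Akt2 0.27, Plagl1 0.26 and Gnptg 0.15. With upper-quartile factors Stc1 was 0.003, Akt2 0.019 and Plagl1 0.005, and with no filter Akt2 was 0.004. With 1 library left out Igfals ran from -1.08 to 0.009, Stc1 from -0.15 to 0.12, Akt2 from -0.042 to 0.042, Plagl1 from -0.033 to 0.003, Igf2bp3 from -0.28 to 0.24 and Mbp from -0.14 to 0.19. The libraries number 3 per group, and transcript shares rest on model estimates whose error is not in the files.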

Other observations

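By TMM scaling, 27.0% of all genes tested were higher and 27.6% lower in GPR174-KO muscle. Counts of markers near these shares are not a result about a cell type. Of 6 satellite cell markers 3 were higher and 2 lower, and of 8 smooth muscle and pericyte markers 4 were higher and 2 lower. Of 4 adipocyte markers 2 were higher and 0 lower. Of 3 tendon markers 1 was higher and 2 lower. Acta2, the smooth muscle actin, was 2.30-fold higher (adjusted p = 0.00139), while Rgs5, a pericyte gene, had a log2 fold change of -0.82 (adjusted p = 0.00256). Of 5 tested T cell markers 0 were called in either direction by TMM scaling. By total counts 2 were higher, where 50.7% of all genes were.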
